A study of Homo sapiens with 8 samples.

Results

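The 10 genes NOG, INHBA, TGFB1, BMPR2, SMAD6, SMAD7, SKIL, ID1, ID2 and ID3 belong to the bone morphogenetic protein (BMP), activin and TGF-beta pathways. They encode signals of these families, a receptor (BMPR2), proteins that restrain the signals, and the ID proteins that respond to them. They are a list of names drawn up with results of these data known, out of 19775 genes with a probe set of their own, and are read by 26 of the 41091 probe sets that were listed with exactly 1 gene symbol. NOG has 1 such probe set, INHBA 3, TGFB1 2, BMPR2 6, SMAD6 4, SMAD7 1, SKIL 5, ID1 1, ID2 2 and ID3 1. A further probe set that lists a member among several symbols was not used.

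The Kasumi-1 line was derived from acute myeloid leukemia and carries the fusion of RUNX1 and RUNX1T1 known as AML-ETO. NR4A1 is an orphan nuclear receptor that binds DNA through a zinc finger domain. The cells were electroporated with in vitro transcribed RNA (IVT-RNA) for GFP (control, 3 arrays), wild type NR4A1 (NR4A1 WT, 3 arrays) or NR4A1 CEAA (2 arrays), whose DNA binding domain is mutated in a zinc finger. Total RNA was taken from the whole culture 6 h later and measured on U133 Plus 2.0 expression arrays from Affymetrix, so that fewer responding cells and less RNA per cell cannot be told apart. All groups are the same cell line and differ only in the RNA they received, NR4A1 was present as transfected RNA and not under its own promoter, and both NR4A1 groups are compared with the same 3 GFP arrays. No source says whether separate cultures were used for the replicates, and the p-values here reflect no more than the variation among these arrays, which may be technical.

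Array medians lay between 4.755 and 4.802 on the log2 scale, and pairs of arrays of 1 group differed with an SD of 0.156 to 0.222 over the 41091 probe sets. Of 7 measured markers of myeloid blasts, MPO read 14.3 to 14.4 over the 8 arrays, KIT 13.4 to 13.8, RUNX1T1 11.1 to 11.6, AZU1 8.01 to 9.01 and CD34 7.44 to 7.88, while ANPEP at 5.85 to 6.25 and CD38 at 4.92 to 5.64 were dim. Of the 6 measured markers of lymphocytes, erythroid cells and fibroblasts, COL1A1 read 7.27 to 7.61 and the others 3.53 to 5.69. The 3 probe sets of NR4A1 read 5.06 to 6.66 in all groups and were not called in any comparison, with adjusted p of 0.464 or more against GFP. The IVT-RNA carried the NR4A1 coding sequence, and whether these probe sets lie in it is not known here, so they do not check the labels.

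BMPs, activins and TGF-betas bind pairs of serine/threonine kinase receptors, which phosphorylate receptor-activated SMADs. These join the common SMAD4, enter the nucleus and switch on target genes, among them the inhibitory SMADs, which feed back on the receptors, and the ID genes. ID proteins lack a DNA binding region and hold E proteins such as TCF3 away from DNA. In blood cells the ID genes are known as brakes on differentiation programs, with effects that depend on the lineage.

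After NR4A1 WT, ID2, ID3, SMAD7 and TGFB1 stood about 2-fold or more above GFP and NOG and ID1 below it, while SMAD6 was lower and BMPR2 higher by less. After NR4A1 CEAA, INHBA stood furthest above GFP, and ID1, ID3, SMAD7 and TGFB1 lay below it. ID1 and BMPR2 moved the same way with both forms. Of the 26 member probe sets, 10 lay above GFP and 4 below it after NR4A1 WT (limma, adjusted p under 0.05), where 6.54% of all probe sets were higher and 7.07% lower. After NR4A1 CEAA 9 were higher and 5 lower, beside 7.12% and 8.64% of all probe sets. Between the forms, 7 were higher and 4 lower with NR4A1 WT, beside 13.7% and 12.7%. Since results were known when the members were listed, nothing is read from these counts. NOG, INHBA and ID2 were picked from their changes. Their probe sets are among those counted, and below they are described without a test. How the other 7 genes were picked is not recorded, and their p-values set a difference against the spread of replicates and are not independent evidence.

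The counts against GFP after NR4A1 CEAA rested on few arrays. Without GFP replicate 1 or 3, 5 member probe sets were higher and 3 lower. Calls over all 41091 probe sets fell as well, from 2924 higher and 3552 lower. They were 1790 and 2401 without GFP replicate 1, and 1596 and 2213 without GFP replicate 3. Over the brightest probe set of each gene, the median difference of the 10 members was 0.24 after NR4A1 WT and -0.17 after NR4A1 CEAA on the log2 scale, against 0.00 and -0.03 over all 19775 genes. The median size of the difference regardless of sign was 1.01 after NR4A1 WT and 0.36 after NR4A1 CEAA, against 0.11 and 0.13. With results known when the members were listed, these medians are a description and nothing is read from them.

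**Figure D1:**
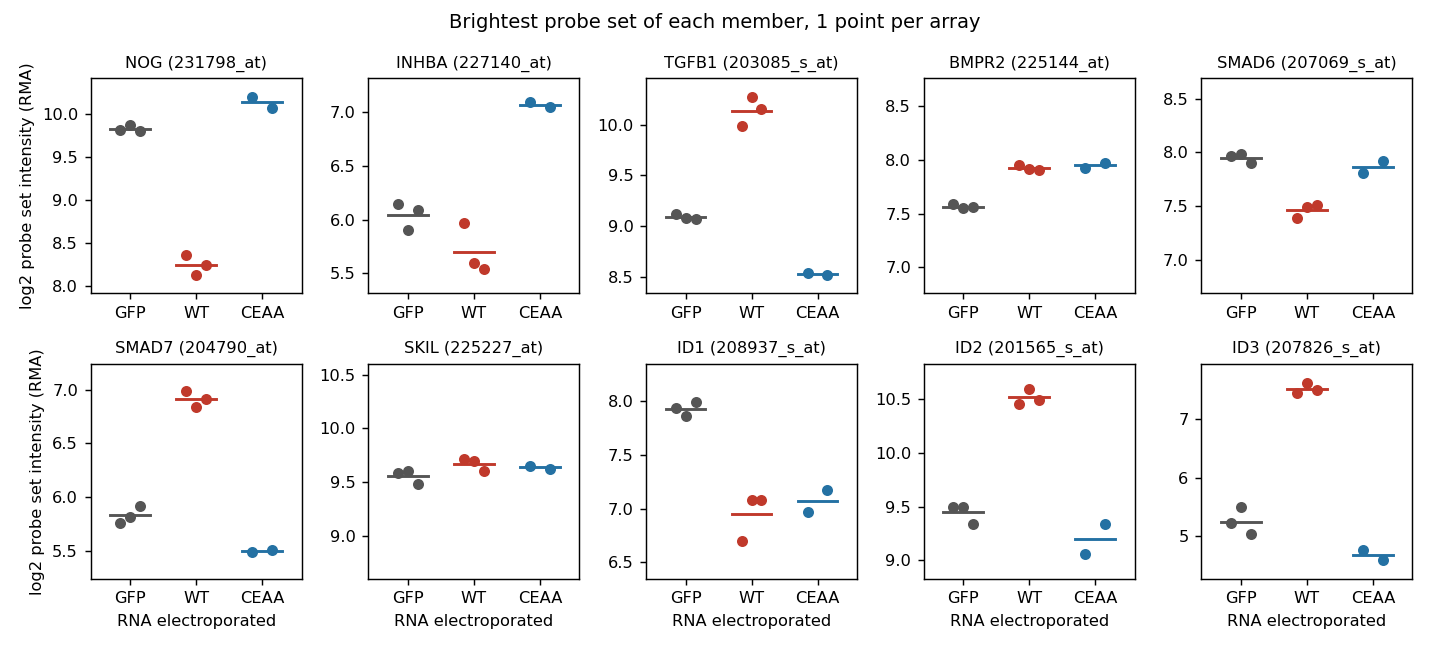
Log2 RMA intensity (y axis) of the brightest probe set of each of the 10 members in each array, by electroporated RNA (x axis). Each point is 1 array (GFP n = 3, NR4A1 WT n = 3, NR4A1 CEAA n = 2), each line is a group mean, and every panel has its own scale. Of the 3 groups, NR4A1 WT lies lowest for NOG (8.24 on average) and highest for ID3 (7.52 on average).

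NOG encodes noggin, a secreted protein that binds BMPs and keeps them from their receptors. Its only probe set, 231798_at, read 9.82, 9.88 and 9.81 with GFP, 8.36, 8.13 and 8.25 with NR4A1 WT, and 10.20 and 10.08 with NR4A1 CEAA. The 3 groups did not overlap, with NR4A1 WT lowest and NR4A1 CEAA highest. The difference from GFP was -1.59 (log2, standard error 0.07), or 3.01-fold lower, after NR4A1 WT and 0.31 (standard error 0.08) after NR4A1 CEAA. NR4A1 WT was 3.72-fold below NR4A1 CEAA.

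INHBA encodes the beta A subunit, which forms activin A as a homodimer and inhibin A with the alpha subunit. Its brightest probe set, 227140_at, read 6.14, 5.90 and 6.08 with GFP, 5.96, 5.59 and 5.54 with NR4A1 WT, and 7.09 and 7.04 with NR4A1 CEAA. Both NR4A1 CEAA arrays lay above all others, while NR4A1 WT overlapped with GFP. The difference from GFP was 1.03 (log2, standard error 0.13), or 2.04-fold, after NR4A1 CEAA and -0.34 (standard error 0.12) after NR4A1 WT. The second probe set, 210511_s_at, read 5.91, 5.90 and 5.91 with GFP, 5.53, 5.52 and 5.31 with NR4A1 WT, and 6.27 and 6.35 with NR4A1 CEAA, so that its groups did not overlap. It differed from GFP by -0.45 after NR4A1 WT and 0.40 after NR4A1 CEAA on the log2 scale. The third, 204926_at, stayed between 2.83 and 3.27 in all arrays, under the median of all probe sets (4.77), and is not shown to be above background.

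TGFB1 encodes TGF-beta 1, which is secreted in a latent form. Its brightest probe set, 203085_s_at, read 9.12, 9.08 and 9.07 with GFP, 9.98, 10.27 and 10.16 with NR4A1 WT, and 8.54 and 8.52 with NR4A1 CEAA. The groups did not overlap, with NR4A1 WT highest. TGFB1 rose by 1.05 (log2, standard error 0.08, limma adjusted p = 6.43e-05) after NR4A1 WT, a 2.07-fold change. It fell by 0.56 (standard error 0.09, limma adjusted p = 0.0044) after NR4A1 CEAA, which Rank Product, the test named in the study's methods, did not call (q = 0.0795). Set directly against each other, NR4A1 WT was 3.05-fold above NR4A1 CEAA (limma adjusted p = 1.23e-05). The dimmer probe set, 203084_at, did not show the rise. It read 5.52, 5.54 and 5.78 with GFP and 5.66, 5.51 and 5.66 with NR4A1 WT, a difference of -0.00 with a 95% interval of -0.20 to 0.19 (log2). With NR4A1 CEAA it read 5.25 and 5.29, below every other array, a difference from GFP of -0.35 (limma adjusted p = 0.0409).

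BMPR2 encodes the type II receptor of BMPs. Its brightest probe set, 225144_at, read 7.59, 7.55 and 7.56 with GFP, 7.95, 7.92 and 7.90 with NR4A1 WT, and 7.93 and 7.97 with NR4A1 CEAA. All NR4A1 arrays lay above all GFP arrays, and the 2 forms overlapped. BMPR2 rose by 0.36 (log2, standard error 0.05, limma adjusted p = 0.00273) after NR4A1 WT and by 0.38 (standard error 0.06, limma adjusted p = 0.00461) after NR4A1 CEAA, which Rank Product did not call (q = 0.379 and 0.467). NR4A1 WT minus NR4A1 CEAA was -0.02 with a 95% interval of -0.16 to 0.11. Of the other 5 probe sets, 231873_at (0.44 and 0.35) and 210214_s_at (0.35 and 0.54) were higher after both forms. 209920_at was higher after NR4A1 CEAA by 0.44 (limma adjusted p = 0.0425), and 238516_at and 1556075_at were not called against GFP. 238516_at was the only one called between the forms, with NR4A1 WT 0.37 above NR4A1 CEAA (limma adjusted p = 0.0206). The forms also did not overlap in 209920_at, 210214_s_at and 1556075_at, where NR4A1 WT lay lower (-0.23, -0.20 and -0.13, none called).

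SMAD6 and SMAD7 encode the inhibitory SMADs. SMAD6 acts mainly on BMP receptors, while SMAD7 acts on TGF-beta, activin and BMP receptors. SMAD7, by its only probe set 204790_at, read 5.76, 5.81 and 5.92 with GFP, 6.99, 6.84 and 6.91 with NR4A1 WT, and 5.49 and 5.50 with NR4A1 CEAA. The groups did not overlap. SMAD7 rose by 1.08 (log2, standard error 0.07, limma adjusted p = 2.37e-05), or 2.12-fold, after NR4A1 WT. After NR4A1 CEAA it fell by 0.33 (standard error 0.08, limma adjusted p = 0.0198). That smaller call ended without GFP replicate 3 (adjusted p = 0.066), without NR4A1 CEAA replicate 1 (0.12) or replicate 2 (0.102), and by Rank Product (q = 0.488). NR4A1 WT exceeded NR4A1 CEAA by 1.42 (limma adjusted p = 1.11e-05).

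SMAD6 read 7.96, 7.99 and 7.90 with GFP, 7.39, 7.49 and 7.51 with NR4A1 WT, and 7.81 and 7.91 with NR4A1 CEAA in its brightest probe set, 207069_s_at. All NR4A1 WT arrays lay below all others, while GFP and NR4A1 CEAA overlapped. It fell by 0.49 (log2, standard error 0.06, limma adjusted p = 0.00134) after NR4A1 WT, which Rank Product did not call (q = 0.128). After NR4A1 CEAA the difference was -0.09 (95% interval -0.25 to 0.08, limma adjusted p = 0.483). NR4A1 WT minus NR4A1 CEAA was -0.40 (limma adjusted p = 0.00353), which Rank Product did not call (q = 0.582). The other 3 probe sets of SMAD6, at 4.81 to 5.38, did not show the fall. 209886_s_at was 0.25 higher after NR4A1 WT (limma adjusted p = 0.031), and 209887_at and 213565_s_at were not called in any comparison. Between the forms these 3 probe sets differed by -0.04 to 0.15, none called.

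SKIL encodes SnoN, a nuclear corepressor that binds SMAD complexes. Its brightest probe set, 225227_at, read 9.59, 9.60 and 9.49 with GFP, 9.71, 9.70 and 9.60 with NR4A1 WT, and 9.65 and 9.62 with NR4A1 CEAA. The arrays lay close together. The differences from GFP were 0.11 (log2, 95% interval -0.03 to 0.26, limma adjusted p = 0.314) after NR4A1 WT and 0.08 (limma adjusted p = 0.513) after NR4A1 CEAA. Of its other 4 probe sets 206675_s_at was higher after both (0.28 and 0.45, limma adjusted p = 0.0443 and 0.00934), at 4.16 to 4.71 and so under the median of all probe sets. The remaining 3 were not called.

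ID1, ID2 and ID3 encode close relatives that bind E proteins, and their probe sets took different courses. The 250 bases before each start site (RefSeq, GRCh38.p14) are printed here because the members of 1 family differed, with SMAD6 added for its SMAD palindrome. All are written 5′ to 3′ on the strand of the gene, which is plus for ID1 at chr20:31605039-31605288, ID2 at chr2:8681806-8682055 and SMAD6 at chr15:66701986-66702235, and minus for ID3 at chr1:23559502-23559751. Capitals mark a match to one of the motifs searched.
ID1: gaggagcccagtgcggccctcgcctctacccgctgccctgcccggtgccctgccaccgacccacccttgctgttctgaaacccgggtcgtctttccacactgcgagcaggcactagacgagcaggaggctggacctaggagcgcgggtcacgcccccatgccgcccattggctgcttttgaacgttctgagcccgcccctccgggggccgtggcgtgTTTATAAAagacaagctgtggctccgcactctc
ID2: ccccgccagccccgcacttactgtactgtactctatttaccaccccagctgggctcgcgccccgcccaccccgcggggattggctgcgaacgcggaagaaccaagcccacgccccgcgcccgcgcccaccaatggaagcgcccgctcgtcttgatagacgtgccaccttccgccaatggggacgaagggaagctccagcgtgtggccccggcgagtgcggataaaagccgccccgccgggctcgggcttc
ID3: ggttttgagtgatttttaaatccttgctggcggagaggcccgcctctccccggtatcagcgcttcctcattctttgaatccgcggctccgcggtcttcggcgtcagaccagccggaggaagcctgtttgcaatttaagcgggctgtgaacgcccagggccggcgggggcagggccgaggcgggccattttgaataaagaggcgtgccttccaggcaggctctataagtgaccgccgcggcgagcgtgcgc
SMAD6: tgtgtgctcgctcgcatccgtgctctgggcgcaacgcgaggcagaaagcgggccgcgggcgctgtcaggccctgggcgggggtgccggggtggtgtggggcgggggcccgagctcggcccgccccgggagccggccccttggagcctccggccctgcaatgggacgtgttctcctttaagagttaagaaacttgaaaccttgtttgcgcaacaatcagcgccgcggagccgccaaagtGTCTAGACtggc

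Both strands of the 250-base windows were searched for AAAGGTCA, the NR4A monomer element (NBRE), for its core AGGTCA, which every NBRE contains, for the ETS letters CCGGAAGT, for GGCGCC and GTCTAGAC, letters bound by SMADs, and for the TATA box letters TATAAA. The table held 35116 windows and 9 of the 10 members, SMAD7 with 3 windows. The NBRE was in 1.05% of all windows and in no window of a member, and the ETS letters were in 3.42% and in none. Elements farther from the start, such as distal enhancers, were not searched, so direct binding by NR4A1 was not tested. AGGTCA was in 12.1% of windows and in 1 of SMAD7, GGCGCC in 16.4% and in those of BMPR2 and SKIL, and TATAAA in 10.7% and in those of INHBA, ID1 and SMAD7. GTCTAGAC was in 0.182% of windows, among them that of SMAD6, 12 to 5 bases before the start. In the ID1 sequence above, the capitals are TATAAA 31 to 26 bases before the start and an overlapping match on the other strand. The windows of ID2 and ID3 held none of these letters. GC made up 66% of the window of ID1, 69.2% of ID2, 62% of ID3 and 68% of SMAD6, against a median of 58% over all windows.

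ID3, by its only probe set 207826_s_at, read 5.21, 5.49 and 5.03 with GFP, 7.45, 7.63 and 7.50 with NR4A1 WT, and 4.76 and 4.58 with NR4A1 CEAA. The groups did not overlap. ID3 rose by 2.28 (log2, standard error 0.12, limma adjusted p = 8.27e-06), or 4.86-fold, after NR4A1 WT, the largest difference from GFP among the 26 member probe sets. After NR4A1 CEAA it fell by 0.57 (standard error 0.13, limma adjusted p = 0.0203), to readings under the median of all probe sets (4.77) that are not shown to be above background. That fall was not called without GFP replicate 1 (adjusted p = 0.0513), without NR4A1 CEAA replicate 1 (0.0707) or replicate 2 (0.151), or by Rank Product (q = 0.0714). NR4A1 WT exceeded NR4A1 CEAA 7.22-fold (limma adjusted p = 5.78e-06).

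ID2 read 9.50, 9.50 and 9.34 with GFP, 10.46, 10.60 and 10.50 with NR4A1 WT, and 9.06 and 9.34 with NR4A1 CEAA in its brightest probe set, 201565_s_at. The NR4A1 WT arrays lay above all others. The difference from GFP was 1.07 (log2, standard error 0.09), or 2.10-fold, after NR4A1 WT and -0.25 (standard error 0.10) after NR4A1 CEAA. The other probe set, 201566_x_at, gave 0.99 and -0.20, from 7.74, 7.61 and 7.56 with GFP, 8.73, 8.50 and 8.66 with NR4A1 WT, and 7.33 and 7.55 with NR4A1 CEAA.

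ID1, by its only probe set 208937_s_at, read 7.94, 7.86 and 8.0 with GFP, 6.70, 7.08 and 7.08 with NR4A1 WT, and 6.97 and 7.18 with NR4A1 CEAA. All NR4A1 arrays lay below all GFP arrays, and the 2 forms overlapped. ID1 fell by 0.98 (log2, standard error 0.11, limma adjusted p = 0.000656) after NR4A1 WT and by 0.86 (standard error 0.13, limma adjusted p = 0.00341) after NR4A1 CEAA, both with a call by Rank Product (q = 0.00109 and 0.00535). These are 1.97-fold and 1.81-fold changes. NR4A1 WT minus NR4A1 CEAA was -0.12 (95% interval -0.41 to 0.17, limma adjusted p = 0.554), so a difference of up to 0.41 between the forms lies within the interval. Without NR4A1 WT replicate 1, the lowest of its arrays, the difference was 0.0088.

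**Figure D2:**
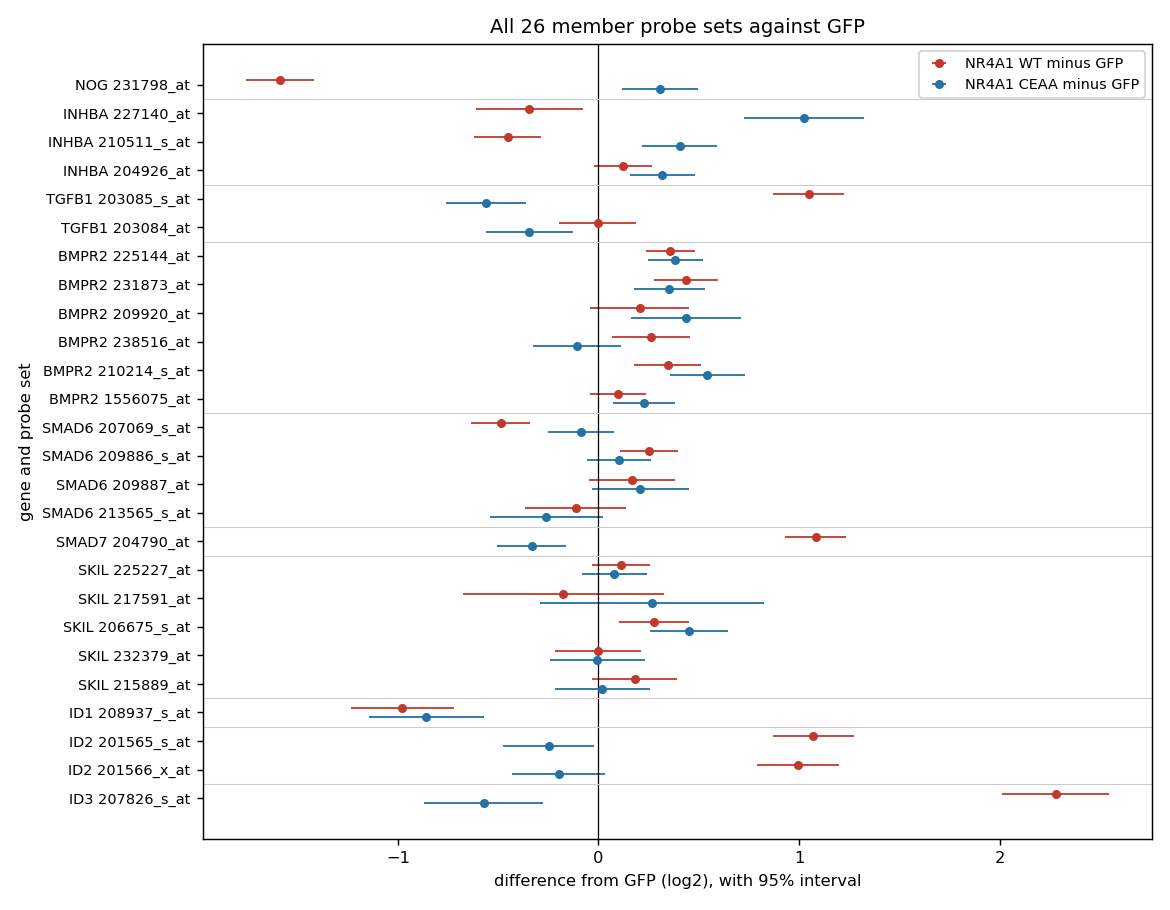
Difference from GFP on the log2 scale (x axis) for each of the 26 member probe sets (y axis), NR4A1 WT in red and NR4A1 CEAA in blue. Points are limma estimates over 3 GFP arrays and 3 NR4A1 WT or 2 NR4A1 CEAA arrays, and bars are 95% intervals; ID3 lies at 2.28 and -0.57, and ID1 at -0.98 and -0.86.

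Among the other genes of the ID list, E protein gene TCF3 was lower and ID4, TCF4 and TCF12 were not called. TCF3 read 10.51, 10.52 and 10.50 with GFP, 10.00, 9.90 and 9.93 with NR4A1 WT, and 10.63 and 10.59 with NR4A1 CEAA in its brightest probe set, 209153_s_at. The NR4A1 WT arrays lay below all others. TCF3 fell by 0.56 after NR4A1 WT (log2, standard error 0.06, limma adjusted p = 0.000319), which Rank Product did not call (q = 0.0669), and was not called after NR4A1 CEAA (0.11, limma adjusted p = 0.321). NR4A1 WT minus NR4A1 CEAA was -0.67 (limma adjusted p = 0.000151). Of its 13 other probe sets, 209152_s_at and 215260_s_at were also lower after NR4A1 WT, each by 0.31, and 11 were not called. TCF4, dim in every group, differed from GFP by -0.50 after NR4A1 CEAA (limma adjusted p = 0.061), and ID4 and TCF12 differed by 0.19 or less in either comparison with GFP.

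**Figure D3:**
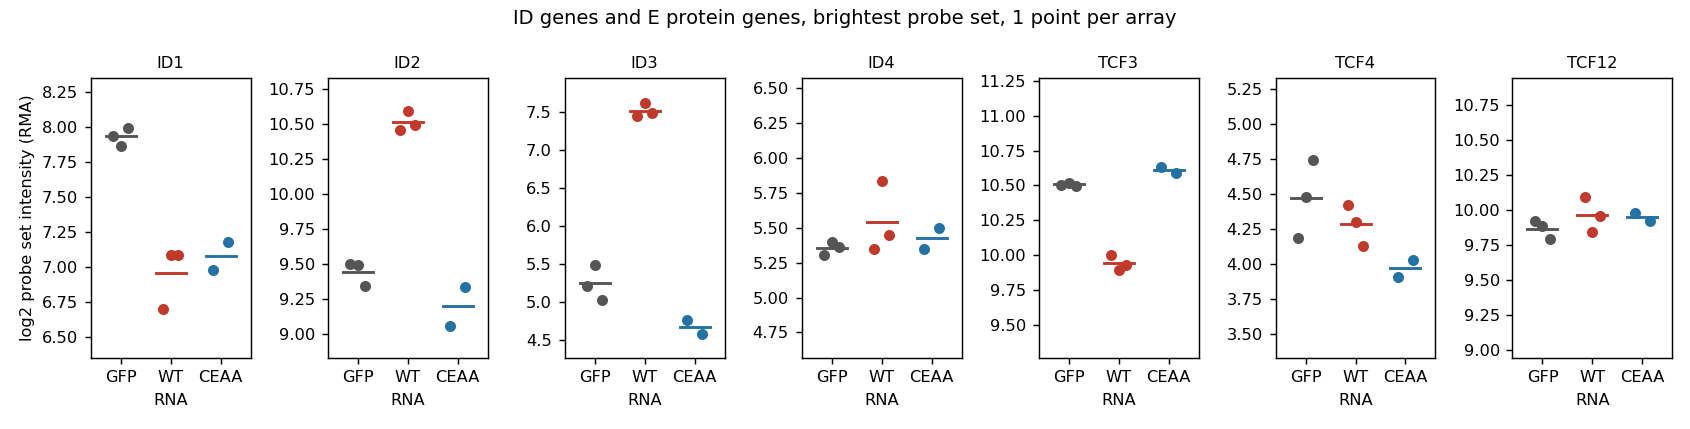
Log2 RMA intensity (y axis) of the brightest probe set of the 4 ID genes and of the E protein genes TCF3, TCF4 and TCF12, by electroporated RNA (x axis). Each point is 1 array (GFP n = 3, NR4A1 WT n = 3, NR4A1 CEAA n = 2), each line is a group mean, and every panel has its own scale; with NR4A1 WT, ID1 and TCF3 lie below GFP and ID2 and ID3 above it.

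The other genes of the pathway were followed by lists, each gene by its brightest probe set, and most were not called. Those described here made 46 calls over the 3 comparisons by limma, of which 37 were not called by Rank Product. The 9 that both called were the differences from GFP of NRROS, ENG and SKI after NR4A1 WT and of INHBC, BMP4, BMP7 and FURIN after NR4A1 CEAA, and those of BMP4 and INHBC between the forms. Over all 19775 genes, 8.18% lay above GFP and 8.76% below it after NR4A1 WT, and 5.95% and 10.5% after NR4A1 CEAA. Of 27 measured ligand genes that are no members, 1 was higher and none lower after NR4A1 WT, with a median difference of 0.04 (log2), and none was higher and 3 lower after NR4A1 CEAA, with a median of -0.06. At an unadjusted p under 0.05, 1 was lower after NR4A1 WT and 0 were higher after NR4A1 CEAA (limma), and Rank Product called 0 in each. In that list 15 of the 27 genes lay under the median of all probe sets. BMP4, a BMP ligand, read 7.56, 7.45 and 7.49 with GFP, 7.67, 7.92 and 7.92 with NR4A1 WT, and 6.71 and 6.69 with NR4A1 CEAA. It fell by 0.80 after NR4A1 CEAA (standard error 0.09, limma adjusted p = 0.00124). Its rise of 0.33 after NR4A1 WT (limma adjusted p = 0.0283) was not called without GFP replicate 1 (adjusted p = 0.0565), 2 (0.098) or 3 (0.0852), without NR4A1 WT replicate 2 (0.0811) or 3 (0.0841), without NR4A1 CEAA replicate 1 or 2 or both (0.0521 for each), or by Rank Product (q = 0.469). INHBC, an activin subunit gene, fell by 0.81 after NR4A1 CEAA (limma adjusted p = 0.000563), while its dim second probe set was not called. BMP7 fell by 0.64 there (limma adjusted p = 0.00173), while its 3 other probe sets were not called.

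Of 22 genes of extracellular antagonists and of latency or activation proteins, 1 was higher and 1 lower after each form, with median differences of 0.05 after NR4A1 WT and -0.01 after NR4A1 CEAA. NRROS, which holds latent TGF-beta 1 at the surface of myeloid cells, read 9.18, 9.23 and 9.16 with GFP, 8.25, 8.40 and 8.25 with NR4A1 WT, and 9.09 and 9.01 with NR4A1 CEAA. The NR4A1 WT arrays lay below all others. NRROS fell by 0.89 after NR4A1 WT (standard error 0.07, limma adjusted p = 5.66e-05) and was not called after NR4A1 CEAA (-0.14, limma adjusted p = 0.236). FSTL1, a follistatin-like secreted protein, rose by 0.30 after NR4A1 WT (limma adjusted p = 0.0173), not called without GFP replicate 1 (0.0706) or 2 (0.0661). After NR4A1 CEAA, FURIN, a protease that cleaves TGF-beta family precursors, fell by 0.61 (limma adjusted p = 0.00129). TWSG1, a secreted BMP modulator, rose by 0.58 there (limma adjusted p = 0.00237), while its other probe set was not called.

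Of 17 receptor and co-receptor genes, 3 rose and 2 fell after NR4A1 WT, with a median of -0.06, and 1 was higher and 2 lower after NR4A1 CEAA, with a median of -0.05. ENG, the co-receptor endoglin, fell by 0.60 after NR4A1 WT (limma adjusted p = 0.000234) and by 0.34 after NR4A1 CEAA (limma adjusted p = 0.00889), the second not called without NR4A1 CEAA replicate 1 (0.0849). Its dimmer probe set was not called against GFP. TGFBR2, the type II receptor of TGF-beta, rose by 0.51 after NR4A1 WT (limma adjusted p = 0.000572, Rank Product q = 0.107) and stood at -0.13 after NR4A1 CEAA (limma adjusted p = 0.227). ACVR1, a type I receptor, rose by 0.43 after NR4A1 WT (limma adjusted p = 0.0135, Rank Product q = 0.218). The type I receptor gene ACVR1C was higher and the decoy receptor gene BAMBI lower there, and CD109, a co-receptor gene, was higher and ACVRL1, a type I receptor gene, lower after NR4A1 CEAA. ACVR1C read 3.47 to 4.51 over all arrays, under the median of all probe sets (4.77), and is not shown to be above background. Its other probe set, 1563182_at, was not called (-0.02 after NR4A1 WT). The 4 calls of ACVR1C, BAMBI, CD109 and ACVRL1 each ended without at least 1 of the arrays. They are ACVR1C at 0.49 (without GFP replicate 1, 2 or 3, or NR4A1 WT replicate 2), BAMBI at -0.32 (without GFP replicate 1 or 3), CD109 at 0.49 (without NR4A1 CEAA replicate 2) and ACVRL1 at -0.38 (without GFP replicate 2 or 3, or either NR4A1 CEAA replicate).

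Of the 6 receptor-activated and common SMAD genes, none was called after NR4A1 WT, where the median difference was 0.10, and 3 were higher after NR4A1 CEAA, where it was 0.23. At an unadjusted p under 0.05, 1 was higher and 0 lower after NR4A1 WT (limma), and Rank Product called 0. SMAD5, a BMP-activated SMAD gene, was higher after NR4A1 CEAA in all 5 of its probe sets, by 0.34 to 1.05. Its brightest, 225219_at, read 8.61, 8.68 and 8.58 with GFP, 8.72, 8.52 and 8.49 with NR4A1 WT, and 8.96 and 8.96 with NR4A1 CEAA. SMAD4, the common SMAD gene, rose by 0.52 (limma adjusted p = 0.00921), while its other 4 probe sets were not called, and SMAD1, another BMP-activated SMAD gene, by 0.37 (limma adjusted p = 0.0262). The second bright probe set of SMAD1, 210993_s_at, differed by -0.14 and the dim 208015_at by 0.32, neither called. By their brightest probe sets, the calls of SMAD1, SMAD4 and SMAD5 ended without either NR4A1 CEAA replicate. Those of SMAD1 and SMAD5 also ended without GFP replicate 1 or 3, and that of SMAD1 without GFP replicate 2. None of these 3 probe sets was called by Rank Product (q = 0.261 to 0.557). The other probe sets of SMAD5, among them 235451_at (0.67, limma adjusted p = 0.00141) and 205187_at (1.05, limma adjusted p = 0.00213), were not followed under these alternatives.

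Of 13 other negative regulators, 1 was higher and 3 lower after NR4A1 WT, with a median of 0.00, and 2 were higher and 1 lower after NR4A1 CEAA, with a median of -0.00. SKI, a corepressor related to SKIL, read 9.75, 9.76 and 9.58 with GFP, 9.05, 9.03 and 8.94 with NR4A1 WT, and 9.65 and 9.77 with NR4A1 CEAA. It fell by 0.69 after NR4A1 WT (standard error 0.07, limma adjusted p = 0.000436). Its probe set 204270_at also fell, by 0.59, but was 0.78 higher after NR4A1 CEAA (limma adjusted p = 0.00356), where the brightest did not move beyond its spread (0.01, limma adjusted p = 0.96). TGIF1, a corepressor of SMAD complexes, fell by 0.45 after NR4A1 WT (limma adjusted p = 0.00165, Rank Product q = 0.185). LEMD3, an inner nuclear membrane protein that binds SMADs, was higher after NR4A1 WT by 0.28 (limma adjusted p = 0.0143, and 0.0567 without GFP replicate 1) and after NR4A1 CEAA by 0.23 (limma adjusted p = 0.0477). The ubiquitin ligase genes NEDD4L (-0.33) and WWP1 (0.34) were called after NR4A1 CEAA. The other probe set of WWP1, 212637_s_at, was also higher there, by 0.64 (limma adjusted p = 0.00891), and was not followed under the alternatives. By their brightest probe sets, the calls of LEMD3, NEDD4L and WWP1 after NR4A1 CEAA ended without GFP replicate 1 or 2 and without either NR4A1 CEAA replicate. Those of LEMD3 and WWP1 also ended without GFP replicate 3 or NR4A1 WT replicate 2. After NR4A1 WT the brightest probe set of NEDD4L was not called, but 212448_at and 226974_at fell, by 0.47 and 0.79.

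Of 9 other genes known to be induced by BMP or TGF-beta, none was higher after either form, 2 were lower after NR4A1 WT (median -0.12) and 1 after NR4A1 CEAA (median -0.17). At an unadjusted p under 0.05, 2 were higher after NR4A1 WT and 1 after NR4A1 CEAA (limma), and Rank Product called 0 in each. The lower genes were BAMBI, given above, and JUNB, a subunit of the AP-1 transcription factor, which read 8.27, 8.02 and 8.10 with GFP, 7.77, 7.93 and 7.66 with NR4A1 WT, and 7.81 and 7.74 with NR4A1 CEAA. JUNB differed from GFP by -0.34 and -0.35 (limma adjusted p = 0.0381 and 0.0468). Both calls ended without GFP replicate 1 or 3, without NR4A1 WT replicate 1, or without either NR4A1 CEAA replicate, the first also without NR4A1 WT replicate 3 and the second without GFP replicate 2.

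**Figure D4:**
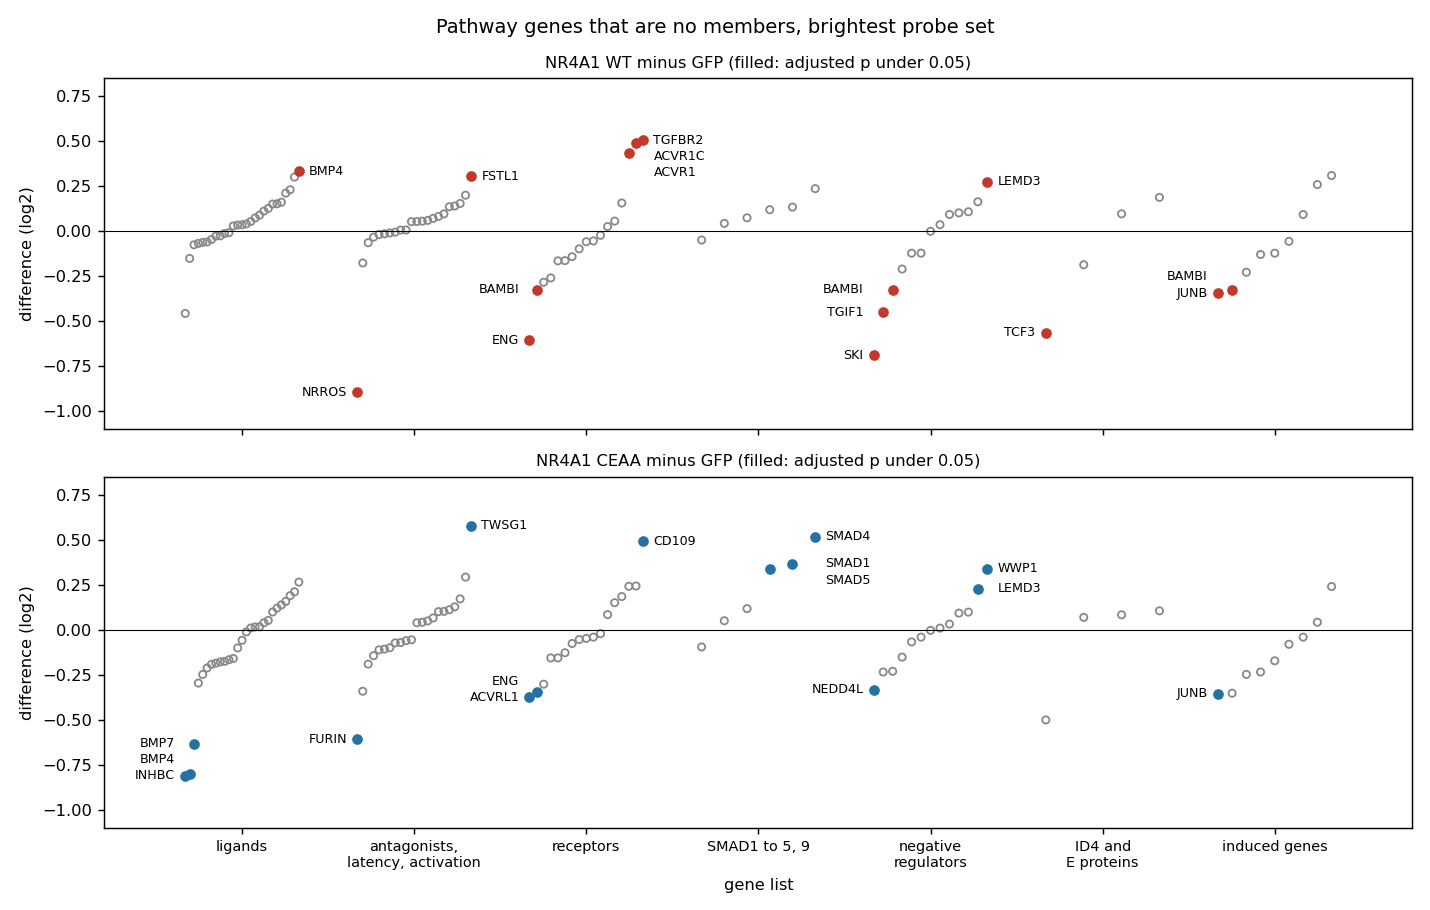
Difference from GFP on the log2 scale (y axis) of each measured pathway gene that is no member, by its brightest probe set and by gene list (x axis), after NR4A1 WT (top, 3 arrays) and NR4A1 CEAA (bottom, 2 arrays), each against 3 GFP arrays. Filled points have an adjusted p under 0.05 (limma) and a label; BAMBI stands in 3 lists, NRROS lies lowest after NR4A1 WT (-0.89), and INHBC and BMP4 after NR4A1 CEAA (-0.81 and -0.80).

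In the comparison of the forms, 6 of the 27 other ligand genes were higher and 1 lower with NR4A1 WT, where 16.5% of all genes were higher and 12.2% lower. Among these genes BMP4 had the largest difference, 1.14 (limma adjusted p = 6.92e-05). INHBC stood 0.84 and BMP7 0.59 higher after NR4A1 WT. BMP8B stood 0.58 lower (limma adjusted p = 0.0325), not called without GFP replicate 1 (0.0501) or either NR4A1 CEAA replicate. The other probe sets of INHBC (-0.21), BMP7 (-0.09 to 0.11) and BMP8B (0.10 and 0.28) were not called between the forms. In the other lists, 2 antagonist, latency or activation genes were higher and 2 lower, 3 receptor genes higher and 5 lower, 3 negative regulators lower, 2 receptor-activated or common SMAD genes lower (SMAD4 at -0.47 and SMAD5 at -0.39), and the induced gene BAMBI lower. CD109 (-0.75), SKI (-0.70), NRROS (-0.75) and TCF3 (-0.67) were lower after NR4A1 WT, and FURIN (0.76), ACVR1C (0.65), TGFBR2 (0.63) and ACVR1 (0.51) higher. None of the last 8, nor SMAD4, SMAD5, BMP7, BMP8B or BAMBI, was called between the forms by Rank Product (q = 0.0583 for FURIN, the lowest). The limma calls of ACVR1C and ACVR1 ended without NR4A1 CEAA replicate 1 (adjusted p = 0.0722 and 0.06), those of SMAD5 and BAMBI without either NR4A1 CEAA replicate, that of BAMBI also without NR4A1 WT replicate 2 or 3, and that of SMAD4 without NR4A1 CEAA replicate 2. Of the members themselves, ID3, TGFB1, SMAD7 and ID2 lay above NR4A1 CEAA after NR4A1 WT, by 2.85, 1.61, 1.42 and 1.32, and NOG, INHBA and SMAD6 below it, by log2 differences of -1.89, -1.37 and -0.40. ID1, BMPR2 and SKIL differed by -0.12, -0.02 and 0.03, each with an interval that includes 0.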

How the data were processed

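Per the study's methods, the authors ran RMA Express (Robust Multiarray Analysis, RMA) on the probe fluorescence and deposited log2 probe set intensities, 1 column per array. RMA draws probe sets near background toward each other, which understates differences of dim ones. Depth does not apply to arrays, and their number (3, 3 and 2) limits the precision. No detection call was used, so levels under the median of all probe sets (4.77) are not shown to be above background, and levels of different probe sets were not compared.

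Of 54613 probe sets, 41091 had exactly 1 gene symbol, 1801 had several and 11721 none. Gene names came from the platform annotation. The first kind was fitted in 1 linear model of the 3 groups (lmFit and eBayes of limma 3.58.1, run under R 4.3.3, with 8.52 total degrees of freedom), with p adjusted by Benjamini-Hochberg over all 41091 and called at 0.05. The test was checked on simulated data. A gene's brightest probe set has the highest mean over the 8 arrays.

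The members and gene lists were chosen with earlier results of these data known. Named are all 26 member probe sets, up to 4 called genes of each list and comparison with the largest difference, and the 3 genes closest in pattern to NOG, INHBA and ID2. The other genes of the ID list that were not called, and probe sets of named genes other than the brightest, were named after their values were seen. Alternatives were Rank Product (100 permutations, q under 0.05), an intensity trend, array weights, 2 groups per fit, a filter on dim probe sets, 1 probe set per gene, quantile normalization again, centring on the median, a replicate block and each array left out in turn. Those for the pathway genes were added after the data were seen.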

Additional observations from a re-analysis of the deposited data

How the results depend on the processing

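Of 357 values for the brightest probe sets of the 7 members given with a test (21 differences under 17 alternatives), 341 kept direction and side of the threshold, 14 lost a call, 0 gained one and 2 changed sign. The 341 include differences that were not called to begin with, such as those of SKIL. Rank Product ended the calls of SMAD6 and BMPR2 after NR4A1 WT and of SMAD6 between the forms. It also ended those of BMPR2, ID3, SMAD7 and TGFB1 after NR4A1 CEAA. The sign changes were between the forms, of BMPR2 after centring on the median (0.0025) and of ID1 without NR4A1 WT replicate 1 (0.0088, the highest of -0.22 to 0.0088 over single arrays left out), neither called. By Rank Product, 5 member probe sets were higher and 2 lower after NR4A1 WT, 1 higher and 1 lower after NR4A1 CEAA, and 5 higher and 2 lower between the forms. Probe sets of NOG, INHBA and ID2, picked from their changes, are in all counts of member probe sets. The 1 higher after NR4A1 CEAA was of INHBA, and the 2 lower between the forms were of NOG and INHBA. With 1 probe set per gene, 10 were tested and 5 were higher after NR4A1 WT, 3 after NR4A1 CEAA, and 4 between the forms. Over all 19775 genes in that fit, 1971, 1411 and 3568 were higher. Leaving out 1 array at a time gave 3 to 8 higher and 2 to 5 lower after NR4A1 CEAA, 7 to 10 higher and 4 to 5 lower after NR4A1 WT, and 5 to 7 higher and 4 lower between the forms. Calls over all 41091 probe sets varied as well when a GFP or NR4A1 WT array was left out. They were 1840 to 2344 higher and 2001 to 2710 lower after NR4A1 WT, and 1596 to 3134 and 2213 to 3735 after NR4A1 CEAA. Between the forms they were 4994 to 5519 higher and 4656 to 5212 lower. Same-numbered arrays deviated from their group means with correlations of -0.0324 to 0.0715, so the numbers were not taken to pair the samples. With the replicate block, 8 member probe sets were higher and 4 lower after NR4A1 WT, 6 higher and 3 lower after NR4A1 CEAA, and 6 higher and 4 lower between the forms. Over all 41091 probe sets it gave 2222 higher and 2458 lower after NR4A1 WT. After NR4A1 CEAA it gave 1728 and 2317, and between the forms 4669 and 4367. The block ended the call of SMAD7 after NR4A1 CEAA (adjusted p = 0.0696) and 8 of the 46 pathway calls, those of BMP4 and JUNB after NR4A1 WT, of ACVRL1, SMAD5, WWP1, LEMD3 and JUNB after NR4A1 CEAA, and of BMP8B between the forms. Over all probe sets, 2924 were higher and 3552 lower after NR4A1 CEAA, against 800 and 1261 without NR4A1 CEAA replicate 1, 808 and 1636 without replicate 2, and 254 and 624 by Rank Product. After NR4A1 WT it was 2686 and 2904, against 713 and 661 by Rank Product, and between the forms 5611 and 5218, against 707 and 299. Of 780 values of the pathway genes, 653 kept their call and 127 lost it, 37 of them by Rank Product. The cause of these losses was not tested. Arrays limit the precision by their number, and dim probe sets by their signal.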

Other observations

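Over the 8 arrays, the brightest probe sets of 839 genes with a range of at least 1 on the log2 scale were set beside those of NOG, INHBA and ID2. Closest to NOG by Pearson correlation were P2RY8 (0.998), PUS7 (0.998) and SOX4 (0.997). Closest to INHBA were SPART (0.991), ITPR2 (0.991) and OTUD6B (0.989), and closest to ID2 were PITPNC1 (0.995), TFAP2A-AS1 (0.994) and APOBEC3G (0.994). All points share the same 8 arrays in 3 groups, so these values describe the order of the group levels and no test was made.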
